A study of Rattus norvegicus with 13 samples.

Results

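The insulin-like growth factor (IGF) system was described here through 9 genes. The tissue was frontal cortex, taken from male Sprague–Dawley rats 1 month after experimental head trauma or sham surgery. They are the ligands Igf1 and Igf2, the receptors Igf1r and Igf2r, and the binding proteins Igfbp2, Igfbp3, Igfbp4, Igfbp5 and Igfbp6. A probe was taken for a member when the gene name in the scanner file equalled the member's name, which gave 12 probes. All 9 members passed the filter on dim probes and are among the 17244 genes tested. The groups were rotational trauma (3 arrays) with its own sham (3 arrays) and percussion trauma (3 arrays) with its own sham (4 arrays). Rotational trauma is a head acceleration rotational injury, and percussion trauma is a lateral fluid percussion injury, a pressure pulse delivered to one side of the brain. Both shams had the anaesthesia and the whole surgery but no trauma, so all 4 groups share these. Each sample had its own 1-colour Agilent array of total RNA from cortex tissue. The labels give separate samples but not how animals were assigned to them, so p-values refer to sample-to-sample spread, which may be technical.

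IGF1 and IGF2 are small secreted growth factors that act through the tyrosine kinase receptor encoded by Igf1r, which signals to growth, survival and protein synthesis through PI3K and AKT. The receptor encoded by Igf2r, which also binds mannose 6-phosphate, carries IGF2 to lysosomes and so clears it. The IGFBPs bind the ligands outside the cell, and proteases release the ligands from them. In the adult rat brain, Igf2 and Igfbp2 transcripts are known mainly from the leptomeninges and the choroid plexus, whereas Igf1 comes from neurons and, after injury, from microglia and macrophages.

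Igf2 and Igfbp2 are shown by sequence because they were the members whose trauma and sham arrays did not overlap in either model. Their starts of transcription in RefSeq (GRCr8) are given as 250 bases before and 50 bases after the start, on the gene's strand. Igf2 has 2 such entries, chr1:207253931-207254230 and chr1:207250426-207250725, both on the minus strand. Igfbp2 has 1 entry, chr9:81864561-81864860, on the plus strand. Capitals mark GGGCGG, the GC box to which SP1 is known to bind, or its reverse complement.
Igf2 first entry: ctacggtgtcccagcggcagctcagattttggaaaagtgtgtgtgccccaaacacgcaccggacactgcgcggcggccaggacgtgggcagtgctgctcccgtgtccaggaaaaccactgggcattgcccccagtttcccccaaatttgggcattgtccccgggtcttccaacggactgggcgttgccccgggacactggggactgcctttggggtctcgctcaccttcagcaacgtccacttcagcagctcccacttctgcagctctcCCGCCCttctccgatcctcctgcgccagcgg
Igf2 second entry: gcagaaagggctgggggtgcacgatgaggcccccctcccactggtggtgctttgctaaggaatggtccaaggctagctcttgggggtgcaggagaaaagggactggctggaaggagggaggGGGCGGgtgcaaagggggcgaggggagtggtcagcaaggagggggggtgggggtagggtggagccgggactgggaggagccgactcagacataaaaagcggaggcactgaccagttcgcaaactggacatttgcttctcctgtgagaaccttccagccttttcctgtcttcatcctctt
Igfbp2: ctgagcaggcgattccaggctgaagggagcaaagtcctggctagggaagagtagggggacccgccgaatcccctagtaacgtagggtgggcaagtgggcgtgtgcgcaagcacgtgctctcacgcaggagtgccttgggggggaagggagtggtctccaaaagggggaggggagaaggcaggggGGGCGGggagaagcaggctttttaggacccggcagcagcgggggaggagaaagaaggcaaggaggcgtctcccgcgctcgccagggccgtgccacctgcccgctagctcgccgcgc

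Each of these 3 windows held 1 GC box. Their GC content was 63.3% and 60.7% in the Igf2 entries and 66.7% in the Igfbp2 entry, beside a median of 51.7% over 33469 rat promoter windows of the same length. The other members had 48.3% (Igf1), 78% (Igf1r), 68% (Igf2r), 71.7% (Igfbp3), 71% (Igfbp4), 50.7% (Igfbp5) and 55.3% (Igfbp6). All 9 members had an entry (10 in all), and 5 of the 10 held GGGCGG on either strand, which 33.1% of all promoter windows held. The TATA box TATAAA was in 1 entry, that of Igfbp4, and in 14.2% of all windows. The STAT-type element TTCCNGGAA was in 0 of the 10 entries and in 1.27% of all windows. A match is a description of these letters and not a binding site.

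The array reads each transcript with probes of 60 bases, placed here on rn4, the build of the array files. The Igf2 probe lies at chr1:202906641-202906700 on the minus strand. Igfbp2 has a probe at chr9:71994131-71994190, which was brighter and gave the gene's value, and a second at chr9:71993843-71993902, both on the plus strand with 228 bases between them. Igf1 likewise has 2 probes, at chr7:24604715-24604774 (used) and chr7:24587916-24587975, with 16739 bases between them. The second probes of Igfbp2 and Igf1 are shown because they gave a second reading of the gene. The files place both Igfbp2 probes on 1 transcript record and the Igf1 probes on different ones.
Igfbp2 second probe: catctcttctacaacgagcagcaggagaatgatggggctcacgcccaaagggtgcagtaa
Igf1 second probe: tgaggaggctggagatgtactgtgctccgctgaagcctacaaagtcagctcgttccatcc

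The other probes lie at chr1:122989150-122989209 (Igf1r), chr1:42340766-42340825 (Igf2r), chr14:87959244-87959303 (Igfbp3), chr10:87834213-87834272 (Igfbp4), chr7:140888422-140888481 (Igfbp6), and chr9:72000312-72000371 (used) and chr9:72003659-72003718 (both Igfbp5). The files do not say which exon or UTR a probe lies in. Igfbp2 and Igfbp5 are adjacent protein-coding genes on chromosome 9 in the RefSeq gene table, and Igf2 stands next to H19.

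Values are log2 processed signals minus the array's 75th percentile, called scaled log2 signal; 0 is the upper quartile of the array, and values of different probes cannot be set against each other. Between 67.0% and 74.1% of spots were well above background on the 13 arrays. Within groups, pairs of arrays had r between 0.988 and 0.997 over genes, and genes are not independent replicates. The rotational arrays lay on 1 slide and the percussion arrays on another, so slide and model cannot be told apart. Each trauma group was set against its own sham. On each slide, trauma and sham lay in different columns, so trauma and column cannot be told apart within a model. Rotational trauma and percussion sham lay in column 2 (67.0% to 72.5% of spots well above background), and rotational sham and percussion trauma in column 1 (72.7% to 74.1%). This share was thus lower in trauma in the rotational model and higher in trauma in the percussion model. Differences were tested with limma on all 13 arrays, two-sided, with Benjamini-Hochberg adjustment over all 17244 genes, and a gene passes at an adjusted p under 0.05.

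Igf2 was the member with the largest trauma-minus-sham difference in both models, and Igfbp2 was next. In both models every trauma array lay above every sham array for these 2 genes, and for none of the other 7. None of the 9 members passed the test in either model, for the mean of both models or for the difference between the models (0 of 9 in each). Over all genes, 0.0116% passed for rotational trauma, and 0% for percussion trauma, for the mean of both and for their difference.

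Igf2 encodes the ligand IGF2. Its scaled log2 signal was 3.38, 2.21 and 2.44 in rotational trauma, against 1.77, 1.02 and 1.32 in rotational sham. It was 3.66, 2.95 and 2.69 in percussion trauma, against 1.93, 1.19, 1.59 and 0.82 in percussion sham. The lowest trauma array of either model thus lay above the highest sham array of its own model, and array 1 was the highest of each group.

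The rotational group means were 2.68 ± 0.62 in trauma and 1.37 ± 0.38 in sham (SD, n = 3 each), a log2 difference of 1.31 (SE 0.369, 95% interval 0.495 to 2.12) or 2.47-fold, which did not pass (limma, adjusted p = 0.492). The percussion means were 3.10 ± 0.50 in trauma (SD, n = 3) and 1.38 ± 0.48 in sham (SD, n = 4), a log2 difference of 1.72 (SE 0.345, 95% interval 0.958 to 2.47) or 3.29-fold, which did not pass either (limma, adjusted p = 0.174). In order of level the groups ran percussion trauma, rotational trauma, percussion sham and rotational sham, and the values of neighbouring trauma groups and of neighbouring sham groups overlapped.

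The mean of both models was a log2 difference of 1.51 for Igf2 (SE 0.253, 95% interval 0.956 to 2.07, 2.85-fold; limma unadjusted p = 8.5e-05, adjusted p = 0.179). By size this was rank 8 among the 17244 genes, and by p rank 5. The smallest adjusted p of any gene in this comparison was also 0.179. The call changed in 2 alternatives. Without the filter on dim probes, Igf2 passed in percussion trauma with the same difference of 1.72 (limma, adjusted p = 0.0147), where 2895 genes passed in all. With the replicate number within each model as a block, it passed for the mean of both with a difference of 1.42 (limma, adjusted p = 0.0398). There 28 genes passed in all.

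**Figure D1:**
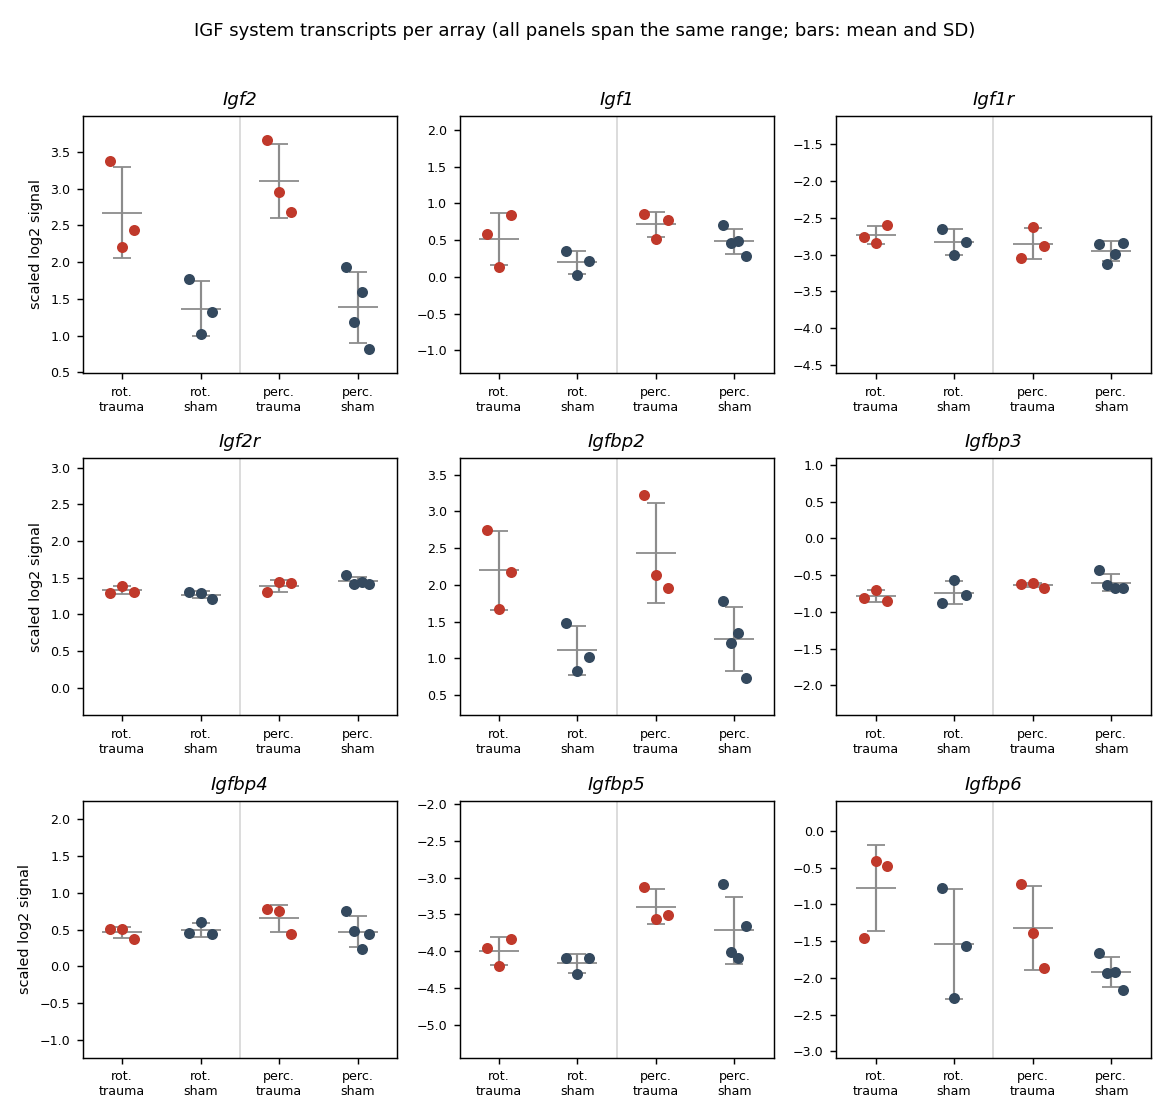
Scaled log2 signal of the 9 genes on each array, with red points for trauma and dark points for sham, and grey bars for the mean and SD of each group. All panels span the same number of log2 units. The trauma points of Igf2 and Igfbp2 stand clear of the sham points in both models, while those of the other 7 genes overlap with sham.

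Igfbp2 encodes a binding protein that is abundant in cerebrospinal fluid and binds IGF2 with high affinity. Its scaled log2 signal was 2.74, 1.67 and 2.18 in rotational trauma, against 1.48, 0.83 and 1.01 in rotational sham. It was 3.22, 2.14 and 1.95 in percussion trauma, against 1.78, 1.21, 1.35 and 0.73 in percussion sham. As for Igf2, no trauma array reached down to a sham array of its model, although the margin was narrower.

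The log2 difference of Igfbp2 was 1.09 in rotational trauma (SE 0.373, 95% interval 0.272 to 1.91, 2.13-fold; limma, adjusted p = 0.582). It was 1.17 in percussion trauma (SE 0.349, 95% interval 0.404 to 1.94, 2.25-fold; limma, adjusted p = 0.264). The mean of both was 1.13 (SE 0.255, 95% interval 0.57 to 1.69, 2.19-fold; limma, adjusted p = 0.179), rank 38 of all genes by size. The second probe of Igfbp2 read 2.15-fold in rotational trauma, 2.42-fold in percussion trauma and 2.28-fold for the mean of both, which did not pass over all 20004 probes (limma, adjusted p = 0.194). Array 1 of percussion trauma carried much of the percussion value: without it the difference was 0.78. With the array row as a block the rotational difference was 0.72.

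The 2 genes without overlap in both models are 22.2% of the 9 members, beside 0.598% of all genes that lay above sham in both models without overlap. The shares of all genes above their sham without overlap were 4.52% in the rotational model and 6.94% in the percussion model.

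Igf1 encodes IGF1, the growth hormone-regulated ligand. Its scaled log2 signal was 0.59, 0.14 and 0.84 in rotational trauma, against 0.35, 0.03 and 0.21 in rotational sham. It was 0.85, 0.52 and 0.77 in percussion trauma, against 0.70, 0.46, 0.49 and 0.28 in percussion sham. In each model 2 of 3 trauma arrays lay above all sham arrays, and the groups overlapped.

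The Igf1 difference was 0.32 in rotational trauma and 0.23 in percussion trauma, with a mean of 0.28 (95% interval 0.02 to 0.535, 1.21-fold; limma, adjusted p = 0.525). The second Igf1 probe gave a mean of 0.27, with a 95% interval that included 0 (−0.0104 to 0.552). The rotational value depended on single arrays, running between 0.163 and 0.514 with 1 array left out.

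Igfbp6 encodes a binding protein that prefers IGF2 over IGF1. Its scaled log2 signal was −1.46, −0.41 and −0.47 in rotational trauma, against −0.77, −2.27 and −1.56 in rotational sham. It was −0.72, −1.39 and −1.86 in percussion trauma, against −1.67, −1.94, −1.92 and −2.16 in percussion sham. The groups overlapped in both models: the highest rotational sham array lay above 1 rotational trauma array, and 1 percussion trauma array lay below the highest percussion sham array.

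The log2 difference of Igfbp6 was 0.76 in rotational trauma (SE 0.395; limma, adjusted p = 0.763) and 0.60 in percussion trauma (SE 0.37; limma, adjusted p = 0.555). The mean of both was 0.68 (95% interval 0.0835 to 1.27, 1.6-fold; limma, adjusted p = 0.494). With 1 array left out, the rotational value lay between 0.389 and 1.14 and the percussion value between 0.297 and 0.868.

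The other 3 binding proteins differed less. Igfbp5, whose product binds to extracellular matrix as well as to the ligands, had scaled log2 signals of −3.96, −4.21 and −3.83 in rotational trauma, against −4.09, −4.31 and −4.09 in rotational sham. Its signals were −3.13, −3.56 and −3.50 in percussion trauma, against −3.09, −4.02, −4.10 and −3.66 in percussion sham. Percussion sham 1 was higher than all 3 percussion trauma arrays. The mean difference of both models was 0.24 (95% interval −0.102 to 0.59; limma, adjusted p = 0.73), and 0.34 for the dimmer second probe, which was well above background on 10 of 13 arrays.

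Igfbp4, whose product is cleaved by the protease PAPP-A, measured 0.50, 0.51 and 0.38 in rotational trauma, against 0.45, 0.61 and 0.44 in rotational sham. It measured 0.78, 0.75 and 0.45 in percussion trauma, against 0.75, 0.47, 0.23 and 0.43 in percussion sham. Its differences were −0.03 and 0.18, with a mean of 0.08 (95% interval −0.116 to 0.266; limma, adjusted p = 0.883). With 1 array left out the percussion value lay between 0.105 (without percussion sham 3) and 0.29 (without percussion trauma 3), and the mean between 0.0351 and 0.128 without the same arrays. Igfbp3, which encodes the main IGF carrier of blood plasma, had signals between −0.85 and −0.70 in rotational trauma, against −0.88 and −0.57 in rotational sham. They were between −0.67 and −0.61 in percussion trauma, against −0.67 and −0.43 in percussion sham. The Igfbp3 mean difference was −0.04 (95% interval −0.178 to 0.101; limma, adjusted p = 0.924).

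Both receptor genes were near their sham levels. Igf1r encodes the signalling receptor, and its scaled log2 signal was −2.76, −2.84 and −2.60 in rotational trauma, against −2.65, −3.01 and −2.82 in rotational sham. It was −3.05, −2.62 and −2.88 in percussion trauma, against −2.85, −3.12, −2.99 and −2.84 in percussion sham. The mean difference was 0.10 (95% interval −0.0959 to 0.294; limma, adjusted p = 0.826).

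Igf2r had signals of 1.30, 1.39 and 1.31 in rotational trauma, against 1.30, 1.30 and 1.21 in rotational sham, and differed by 0.06. It had signals of 1.30, 1.45 and 1.43 in percussion trauma, against 1.54, 1.41, 1.44 and 1.42 in percussion sham, and differed by −0.06, a sign that turned with normexp background correction (0.0442). The mean of both was 0.00 (95% interval −0.099 to 0.101; limma, adjusted p = 0.998). This interval was the narrowest of the 9 and reached no further than 0.101 from 0.

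**Figure D2:**
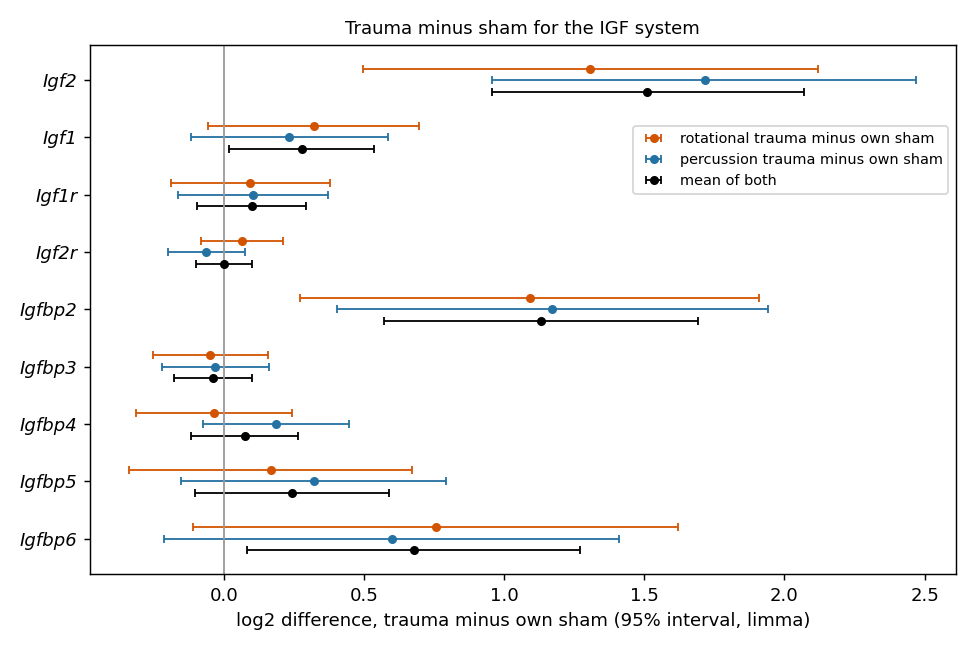
Log2 difference of trauma minus own sham for the 9 genes with 95% limma intervals, for rotational trauma (orange), percussion trauma (blue) and the mean of both (black). The intervals of Igf2 and Igfbp2 lie above 0 in both models, while those of the other 7 genes include 0 in both models. For the mean of both, the intervals of Igf1 and Igfbp6 also lie above 0.

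Seen together, 7 of 9 members had a difference above 0 in rotational trauma, beside 38.1% of all genes, and 7 of 9 in percussion trauma, beside 56.9% of all genes. The mean of both was above 0 in 8 of 9, beside 47.2% of all genes. The members' median difference was 0.168 in rotational trauma, 0.234 in percussion trauma and 0.244 for the mean, beside −0.0342, 0.0261 and −0.00593 over all genes. At an unadjusted p under 0.05, 4 of 9 members (Igf2, Igfbp2, Igfbp6 and Igf1) were higher for the mean of both, beside 5.36% of all genes. Igf1 met this threshold by the probe used but not by its second probe (limma, unadjusted p = 0.0576). The same threshold was met by 2 of 9 in rotational trauma (background 2.7%) and 2 of 9 in percussion trauma (background 8.69%), all of them higher.

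The 95% interval of the difference between the models included 0 for all 9 members. The percussion difference minus the rotational difference was 0.41 for Igf2 (95% interval −0.7 to 1.52; limma, adjusted p = 0.867) and 0.08 for Igfbp2 (95% interval −1.04 to 1.2; limma, adjusted p = 0.983). With 1 array left out the Igf2 value lay between 0.13, when percussion trauma 1 was dropped, and 0.76, when rotational trauma 1 was dropped. The intervals are wide, and a difference of 1 log2 unit between the models lies within both. None of the 9 had an unadjusted p under 0.05 (0 of 9), beside 9.24% of all genes. Because each model has its own slide, this comparison also holds any difference between the slides in how trauma and sham arrays were read. It sets percussion trauma and rotational sham, all in column 1 of their slides, against percussion sham and rotational trauma, all in column 2. A difference between the columns therefore cannot be told apart from a difference between the models.

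**Figure D3:**
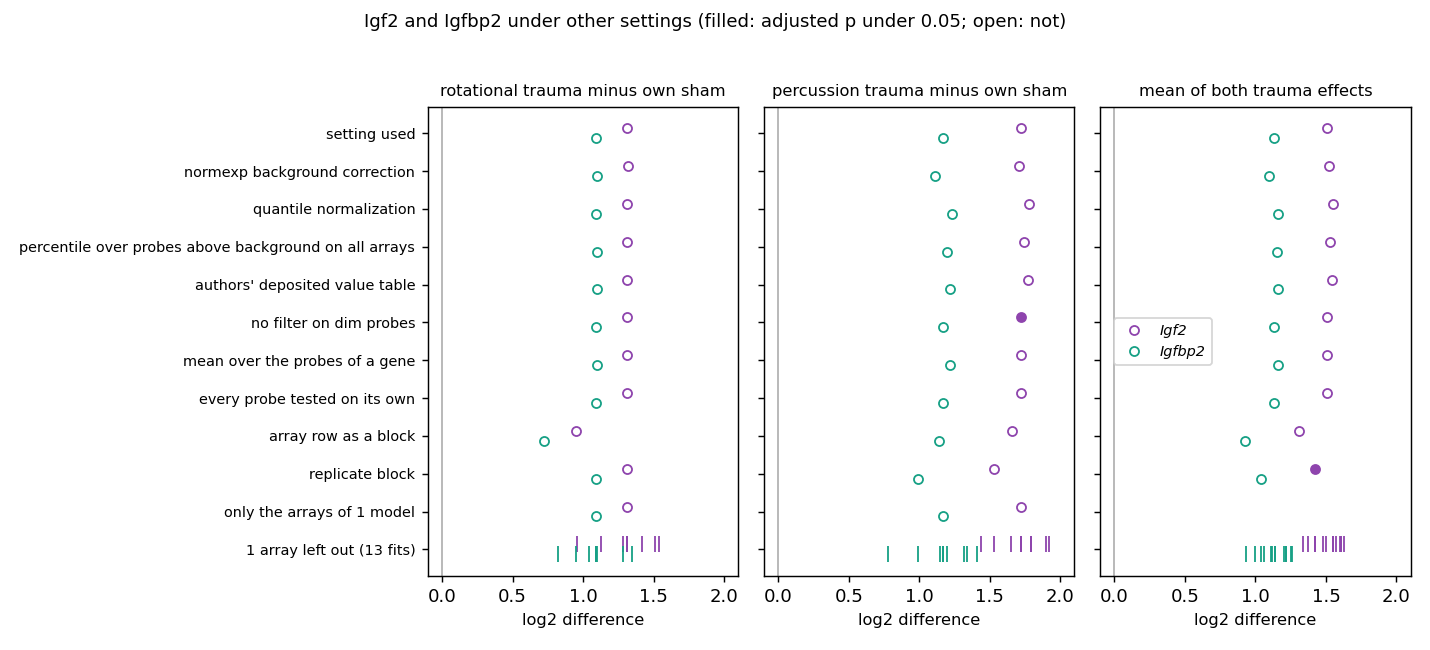
Log2 difference of Igf2 (purple) and Igfbp2 (green) under each alternative setting, with a tick for each fit that left out 1 array. Filled circles mark an adjusted p under 0.05. All values lie above 0, between 0.951 and 1.92 for Igf2, and 2 Igf2 circles are filled.

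Igf2 and Igfbp2 varied together from array to array. After the mean of its model was subtracted from each array, their Pearson r was 0.974 (Spearman rho 0.978) over 13 arrays. After the mean of its own group was subtracted, r was still 0.957, so the arrays of 1 group that were high in Igf2 were also high in Igfbp2. The 13 points share the arrays, their scaling and, where only model means were subtracted, the trauma difference itself, and r is a description. Against Igf2, r was 0.724 for Igf1 and 0.622 for Igfbp6, but with group means subtracted 0.583 and 0.287. For both receptors it was low (0.311 for Igf1r and −0.141 for Igf2r). The SD of Igf2 between the arrays of a group was 0.379 to 0.616, while the 2 spots of its probe on an array, which share RNA, labelling and hybridisation, had a median SD of 0.017.

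The 5 named genes whose pattern was most like that of Igf2 over the 13 arrays, by r with model means subtracted, were Ppic (0.985), Srpx (0.979), Emp3 (0.979), Col1a2 (0.978) and Serping1 (0.977). Ppic encodes a secretory-pathway cyclophilin, Col1a2 a chain of type I collagen and Serping1 the C1 inhibitor of complement. With group means subtracted these 5 gave r between 0.907 and 0.974. For Igfbp2 the closest were Anxa2 (0.995), Ifitm1 (0.993) and Emp3 (0.989), so Emp3 was in the list of both genes. For Igf1 they were Iqgap1 (0.961), Vamp8 (0.936) and Rhoj (0.927), and for Igfbp6 Cpxm2 (0.947), Slc38a2 (0.936) and Bace2 (0.915).

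**Figure D4:**
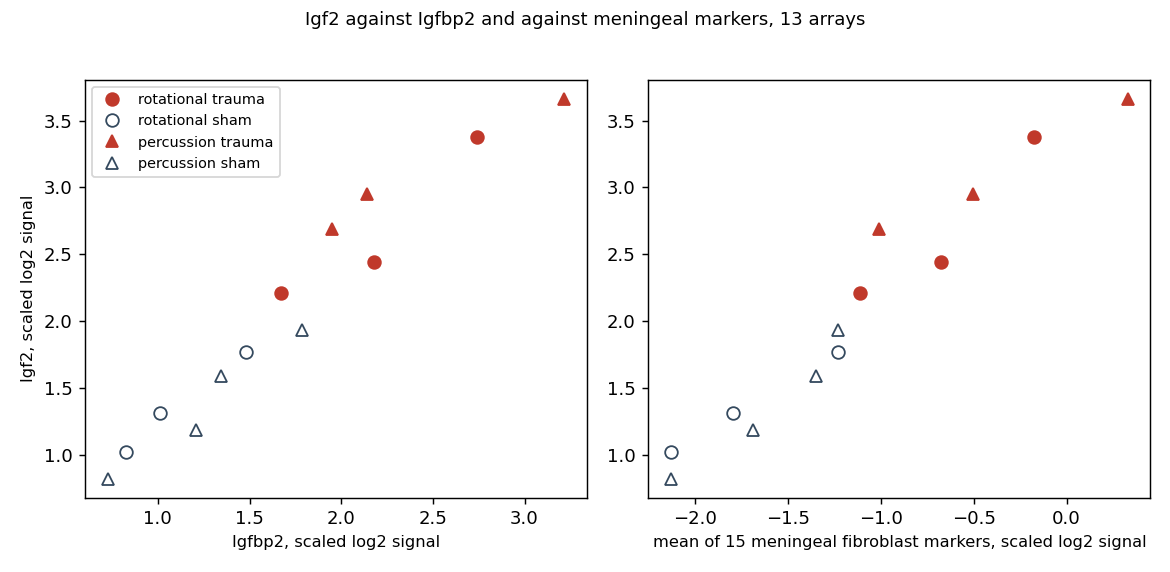
Scaled log2 signal of Igf2 on each array against that of Igfbp2 (left) and against the mean of 15 meningeal fibroblast markers (right), with circles for rotational and triangles for percussion arrays, filled red for trauma and open for sham. In both panels the 13 arrays lie along a line, with trauma arrays toward the upper right.

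Markers of the fibroblasts of the meninges, the membranes that cover the cortex, varied with Igf2 and Igfbp2. Of 16 listed markers, 15 were tested, and all 15 had a mean difference above 0, between 0.74 for Foxc1 (a transcription factor of meningeal development) and 1.71 for Ogn (the matrix proteoglycan osteoglycin), with a median of 1.15. None passed (0 of 15, smallest adjusted p = 0.179 by limma). All 15 were higher at an unadjusted p under 0.05, beside 5.36% of all genes, and 47.2% of all genes had a mean difference above 0. The list was chosen with earlier results of these data known, so its counts are a description. Slc47a1 was not tested, being well above background on at most 4 arrays. The mean scaled log2 signal of the 15 was −0.18, −1.11 and −0.67 in rotational trauma, against −1.23, −2.13 and −1.80 in rotational sham. It was 0.33, −0.50 and −1.01 in percussion trauma, against −1.23, −1.69, −1.35 and −2.13 in percussion sham.

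The meningeal mean followed Igf2 with r 0.975 and Igfbp2 with r 0.988 (model means subtracted), and with r 0.951 and 0.967 after subtracting group means. The mean differences of Igf2 (1.51) and Igfbp2 (1.13) lay inside the range of the 15 markers. For Igf1 the r with the meningeal mean was 0.76, and for Igfbp6 0.707. After subtracting group means these were 0.613 and 0.485. The part of meningeal tissue in the differences of these members was not tested, and in bulk cortex fewer or more cells of a type cannot be told apart from less or more RNA per cell.

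Choroid plexus and ependyma markers were mostly dim. Of 12 listed, 7 on the array, among them Kl, Folr1, Clic6, Cldn2 and Otx2, did not pass the filter, and Kl and Clic6 were well above background on 0 arrays. The 4 tested had mean differences between 0.18 (Foxj1) and 1.68 (Aqp1). Their mean scaled log2 signal ran between −3.31 and −2.27 in rotational trauma, against −4.73 and −2.66 in rotational sham. It ran between −3.04 and −1.89 in percussion trauma, against −4.19 and −3.19 in percussion sham. It followed Igf2 less closely than the meningeal mean, with r 0.838. For Igf1 and Igfbp6 its r was 0.765 and 0.749, beside 0.76 and 0.707 for the meningeal mean. After subtracting group means these were 0.634 and 0.596, beside 0.613 and 0.485. The values of r for the 2 means are not alike in basis, since this mean rests on 4 genes and the meningeal mean on 15. Among the 4, Ttr had an SD of 3.35 in rotational sham. The part of choroid plexus and ependyma in the differences was not tested.

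The 5 tested markers of border macrophages, which live in the meninges and around vessels, had a median mean difference of 0.891 (Lyve1 0.27 to Cd163 1.27), and their mean followed Igf2 with r 0.933 and Igf1 with r 0.843. Mural cell markers had a median of 0.312 (Notch3 −0.22 to Vtn 0.77), with 8 of 10 above 0, beside 47.2% of all genes. The mean of the mural markers followed Igf2 with r 0.948 and Igfbp2 with r 0.967. Endothelial markers had a median of 0.095 (Mfsd2a −0.11 to Tek 0.49), and their mean followed Igf2 with r 0.847, and 0.954 after subtracting group means, where the meningeal mean had 0.951. Oligodendrocyte markers had a median of 0.129 (Opalin −0.05 to Cnp 0.23). Astrocytes had 0.041 (Aldh1l1 −0.06 to Gfap 0.31), but the Gfap value averages 0.99 in percussion trauma and −0.37 in rotational trauma, which did not pass (limma, adjusted p = 0.279 and 0.907). Microglia had a median of 0.052 (Cx3cr1 −0.31 to Csf1r 0.15), and cortical projection neurons −0.07 (Snap25 −0.24 to Tbr1 0.14). Interneurons had −0.09 (Pvalb −0.19 to Gad1 0.00), and markers of striatal projection neurons had −0.33 (Drd2 −0.56 to Tac1 −0.17). The striatal value lay in the rotational model, with a median of −0.589 there and −0.0487 in percussion trauma. The mean signal of the striatal markers was −0.59, −1.20 and −0.54 in rotational trauma, against 0.63, −1.27 and 0.21 in rotational sham, so that rotational sham 1 and 3 stood apart from all other arrays. These arrays are also a reference for the rotational differences of Igf2 and Igfbp2. Leaving out 1 array at a time kept those differences above 0 (0.956 to 1.54 for Igf2 and 0.82 to 1.35 for Igfbp2). Each such fit still held rotational sham 1, rotational sham 3 or both, so their joint part in the differences was not tested. Against Igf2, r was −0.0716 for the mean of the striatal markers, −0.776 for interneurons and −0.461 for cortical projection neurons. After subtracting group means these were 0.409, −0.575 and −0.6. None of the 96 marker genes tested passed in any comparison (0; smallest adjusted p = 0.151 by limma).

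**Figure D5:**
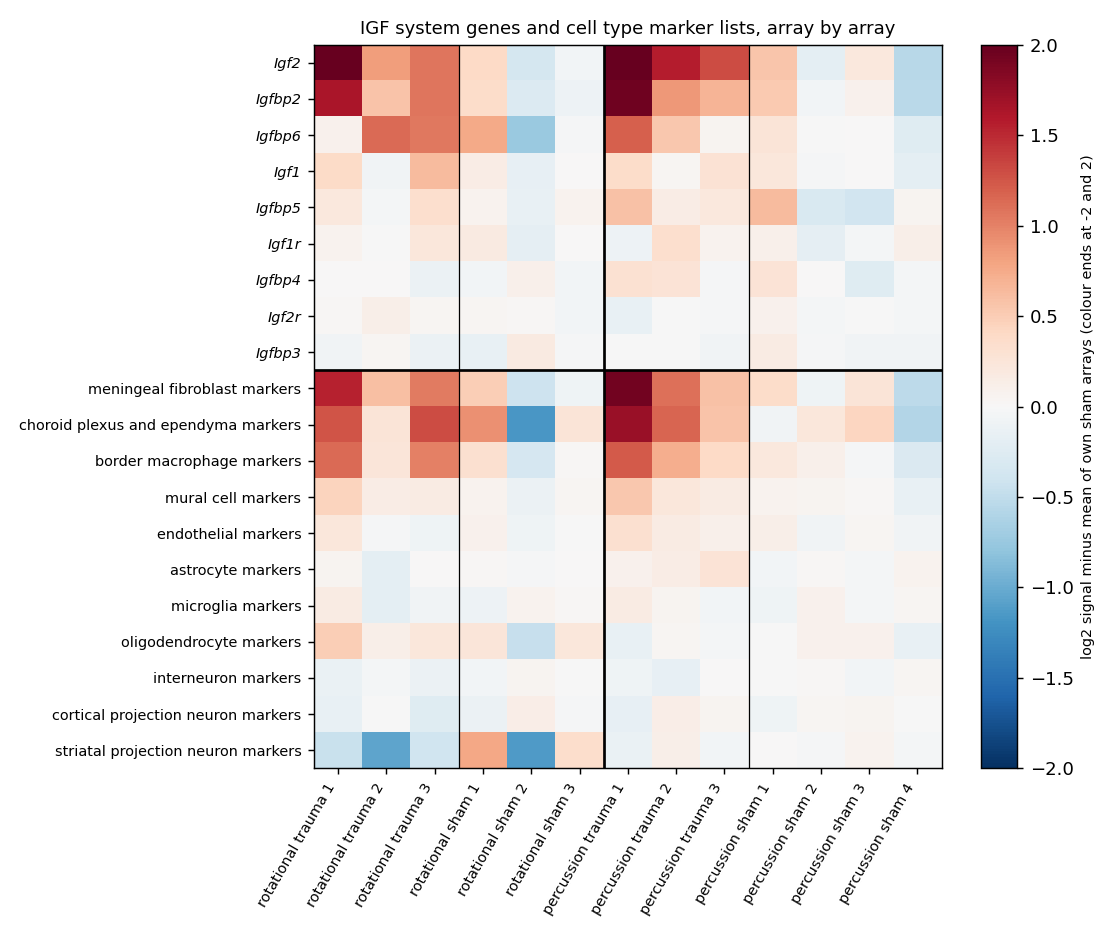
Each array's log2 signal minus the mean of its own sham arrays, for the 9 genes (top) and for the mean of each cell type marker list (bottom). Arrays run from rotational trauma and sham on the left to percussion trauma and sham on the right. The rows of Igf2, Igfbp2 and the meningeal fibroblast markers are red on all 6 trauma arrays and darkest on array 1 of either model.

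The rest of the pathway was read from 8 lists of 64 genes, of which 48 were tested. None of the 48 passed in any comparison (0; smallest adjusted p = 0.229 by limma for the mean of both, where 2 genes were higher and 2 lower at an unadjusted p under 0.05, beside 5.36% and 3.46% of all genes). For the mean of both models 21 were above 0 and 27 below, with a median of −0.02, beside −0.00593 over all genes. Of all genes, 47.2% were above 0. The genes named below are those of smallest unadjusted p in each list, and none of them passed.

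Of the other ligands and receptors, the insulin gene Ins1 had a mean difference of −0.38 (SE 0.322) and the insulin receptor gene Insr 0.05 (SE 0.0832). Ins2 and Insrr were well above background on 0 arrays. Of the other binding proteins, Igfbp1 differed by 0.08 (SE 0.0535) and Igfbpl1, a related secreted protein gene, by 0.59 with a large error (SE 0.607). The gene for the acid-labile subunit, Igfals, which holds IGFs in plasma complexes, was well above background on 0 arrays. So was Pappa, which encodes the protease PAPP-A, while the genes for its inhibitor stanniocalcin 1 (Stc1) and for the protease HTRA1 (Htra1) differed by 0.08 and −0.03.

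Downstream of the receptors, the adaptor genes Shc1 and Grb14 differed by 0.19 and −0.07. In the PI3K and AKT branch, 3 of 18 genes were above 0 in rotational trauma, beside 38.1% of all genes. In percussion trauma 10 of 18 were above 0, beside 56.9%, and for the mean of both 7 of 18, beside 47.2%. The difference between the models had an unadjusted p under 0.05 in 3 genes with a higher and 1 with a lower percussion effect, beside 9.24% of all genes, and none of the 18 passed (0; smallest adjusted p = 0.427 by limma). Tsc2, which encodes an inhibitor of mTOR complex 1 activity, had a mean difference of −0.16 (SE 0.0598), with −0.06 in rotational and −0.26 in percussion trauma. In the growth hormone axis, Stat5a, a transcription factor activated by the growth hormone receptor, differed by 0.31 (SE 0.116; limma, adjusted p = 0.447) and its target Socs2 by −0.14. Irs1, an adaptor of both receptors, was well above background on at most 6 arrays by either probe and was not tested.

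Igf2 is an imprinted gene, transcribed from the paternal copy in most tissues, and its neighbour H19 is a maternally expressed non-coding RNA. H19 did not share the pattern of Igf2: its mean difference was −0.05 (SE 0.316; limma, adjusted p = 0.983), with −0.06 in rotational and −0.04 in percussion trauma. Its error was large, since its signal was near the lower end of the array (−6.91 to −4.93). Of the 10 imprinted genes tested, Cdkn1c, which encodes the cell cycle inhibitor p57, had the smallest p. On the scaled log2 scale it measured −0.25, −0.72 and −0.29 in rotational trauma, against −0.81, −1.75 and −1.40 in rotational sham. It was −0.11, −0.67 and −0.84 in percussion trauma, against −0.83, −1.35, −0.92 and −1.72 in percussion sham, where 1 trauma array overlapped with sham. The mean difference of Cdkn1c was 0.78 (SE 0.2; limma, adjusted p = 0.229), and that of Mest −0.24 (SE 0.0886; limma, adjusted p = 0.447). The gene for the binding protein of Igf2 mRNA, Igf2bp2, differed by −0.04 (SE 0.21), and Igf2bp1 was well above background on 0 arrays.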

How the data were processed

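Total RNA of 13 rat frontal cortex samples was hybridised to 1-colour Agilent arrays. Per the file headers, the spots were read by Agilent Feature Extraction (version 10.5.1.1). The processed signal deposited for each spot is a background-subtracted intensity. The authors also deposited a table of log2 values, which is quantile-normalised by its values (sorted values of the 13 columns differed by an SD of at most 0.00418) and was used as an alternative.

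Of 62976 spots per array, 4259 were controls, and no spot was saturated (0). Outlier spots (6 among the member probes, all of Igf1r) were set missing, spots of a probe were averaged, and log2 signals had the array's 75th percentile subtracted. A probe was kept when all arrays of 1 or more groups were well above background (20004 of 30367 probes). The probe of highest mean stood for a gene, which gave 17244 genes. Names were updated from a RefSeq table of GRCr8 (18006 probes by accession, 2654 by symbol, 559 by synonym; 9148 kept the name in the file). Members were taken by the name in the file.

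One limma 3.58.1 model (R 4.3.3) with a mean per group gave 4 two-sided contrasts (9 residual and 2.22 prior degrees of freedom). On simulated data, a log2 change of 1 was recovered in 82% of changed genes for each trauma effect. For the mean of both the share was 91%. False calls numbered 11 for the rotational effect, 7 for the percussion effect and 12 for the mean. These shares describe the simulated data and not the genes measured here, where Igf2 differed by 1.31 and 1.72 and did not pass. The number of arrays limits the precision. Samples of equal number in trauma and sham deviated together with r between −0.0226 and 0.282 across all genes. This r cannot decide on pairing for single genes, and sample 1 was highest in Igf2 and Igfbp2 in all 4 groups. The labels do not say what the numbers stand for, so they were not taken as pairs.

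The members and lists were chosen with earlier results of these data known. All members are named. Of each pathway list the genes of smallest p for the mean of both are named, of each marker list those of largest and smallest difference, and for each member the genes of highest r; 1 gene that the rule names is not reported here. No accession, probe name or provisional name was considered for likeness, which left 12598 genes. Background correction, normalization, filter, probe choice, row, replicate block, model and each array were varied.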

Additional observations from a re-analysis of the deposited data

How the results depend on the processing

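Of the 9 members, 0 passed in the fits that left out 1 array each (0 to 0 in all 4 comparisons), and 2 calls changed elsewhere. Igf2 passed in percussion trauma without the filter on dim probes (1 member; difference 1.72, adjusted p = 0.0147 by limma), and for the mean of both with a replicate block (1 member; difference 1.42, adjusted p = 0.0398; Igfbp2 1.04, adjusted p = 0.0526). The labels do not say what the replicate numbers stand for, so they were not taken as pairs, and percussion sham 4 has no partner in such a block. The block changed no other member's call. The mean of both lay between 1.34 and 1.63 for Igf2 (adjusted p 0.0537 to 0.439) and between 0.935 and 1.26 for Igfbp2 (0.0826 to 0.444) with 1 array left out.

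All genes that passed in rotational trauma numbered 2, and 4 with normexp, 0 after quantile normalization, 4 in the authors' table, 334 without the filter, 0 with array row or replicate as a block and 6 with 1 model alone. In percussion trauma 0 passed, and 2895 without the filter and 8 with the row block. For the mean of both 0 passed, and 5 with the row block and 28 with the replicate block. For the difference 0 passed, and 3765 without the filter. With 1 array left out, these counts ran from 0 to 12 (12 without rotational trauma 3), 0 to 92 (92 without percussion trauma 3), 0 to 19 (19 without rotational trauma 2) and 0 to 8 (8 without rotational trauma 3). The cause was not tested.

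Signs turned in differences near 0. In percussion trauma Igf2r was 0.0442 with normexp. For the mean of both Igf2r was −0.000672 with the row block and −0.00526 with the replicate block. For percussion minus rotational, Igf1r was −0.0257 after quantile normalization, −0.0539 in the authors' table and −0.026 with the row block, Igfbp3 was −0.00599, −0.0306 and, with the replicate block, −0.00407, and Igfbp2 was −0.1 with the replicate block. With 1 array left out, ranges that crossed 0 were −0.121 to 0.0381 (Igfbp3) and −0.0633 to 0.0195 (Igfbp4) in rotational trauma, and −0.0109 to 0.203 (Igf1r) and −0.0538 to 0.0266 (Igfbp3) in percussion trauma. For the mean of both they were −0.0138 to 0.0235 (Igf2r) and −0.0752 to 0.00423 (Igfbp3). For percussion minus rotational they were −0.28 to 0.0713 (Igf1), −0.105 to 0.108 (Igf1r), −0.312 to 0.351 (Igfbp2), −0.0677 to 0.0911 (Igfbp3) and −0.539 to 0.209 (Igfbp6). The differences of Igf2, and those of Igfbp2 within each model and for their mean, stayed above 0 in every setting tried. Probes near background, as the second of Igfbp5, limit what can be read from dim genes.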

Other observations

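The genes closest in pattern to the remaining members were other genes than those close to Igf2. By r over 13 arrays with model means subtracted they were Nkain3 (0.851), Acsf2 (0.832) and Sorbs3 (0.828) for Igf1r. For Igf2r they were Fgf18 (0.879), Gtf3c5 (0.877) and Plagl2 (0.841), with Spearman rho of 0.714, 0.907 and 0.516. The SD of Igf2r between arrays of a group was 0.0498 to 0.0796, beside a median SD of 0.0536 between its spots. All these r are the highest among 12598 genes and so are partly due to selection. For Igfbp3 they were Srpk3 (0.939), Plag1 (0.921) and Nxpe4 (0.92), for Igfbp4 Pcnxl3 (0.922), Hdac10 (0.914) and Abcc6 (0.898), and for Igfbp5 Ripk1 (0.957), Pcdhga9 (0.957) and Hfe (0.936). Igfbp2 and its neighbour Igfbp5 had r 0.649 with each other, and Igfbp3 and Igfbp4 had r 0.6. Igfbp1, which the gene table places next to Igfbp3, differed by 0.26 in percussion trauma (adjusted p = 0.232 by limma).

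The sample labelled 1 had the highest Igf2 and the highest Igfbp2 signal in all 4 groups. The same held for the mean of the meningeal fibroblast, border macrophage, mural cell and endothelial markers, and for the list of other ligands and insulin-family receptors. It held for 2 of the 9 members, being Igf2 and Igfbp2 themselves, and for no list of neurons. The labels do not say what the number stands for, and correlations of same-numbered samples across all genes were low.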
